A study of Danio rerio with 6 samples.

Results

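Sarcomeres are the repeating units of striated muscle in which thick filaments of myosin slide past thin filaments of actin, tropomyosin and troponin. Titin, nebulin, alpha-actinin and the myomesins hold the filaments in register, and desmin links neighbouring myofibrils. Fast skeletal, slow skeletal and cardiac muscle build this machine from different members of the same gene families. In the zebrafish trunk, slow fibres arise from adaxial cells beside the notochord and fast fibres from the rest of the somite, while the heart has not yet formed a beating tube at the stage studied here.

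The genes described here are the rows of a zebrafish (Danio rerio) gene count table whose symbols belong to the troponin, myosin, tropomyosin, tropomodulin, alpha-actinin, titin, nebulin, myosin-binding protein, myomesin, ldb3, tcap, desmin, smyd1, unc45b and klhl4 name families. In all, 101 of 32057 listed genes bore such a symbol and 89 had at least 10 counts over the 6 libraries. The other 12, among them myhz2, tcap and desmb, held fewer, and 3 of these had no count in any library. Just inside the minimum stood mybpha with 10 counts and tnni2a.1 with 11, and just outside it tnni2a.4 with 7 and tnni4a with 6. Members were read in classes named for the mammalian counterpart of each symbol and for the zebrafish names smyhc (slow myosin heavy chain) and myhz (fast). There were 16 fast, 7 slow, 18 cardiac and 21 shared striated members, 10 of assembly and turnover, 13 of smooth muscle or non-muscle cells, and 4 that the scheme did not place. A symbol is no proof of where a zebrafish gene is used. RefSeq's list for GRCz12tu gives the synonym stnt for tnnt2c and stnnc for tnnc1b, names of slow troponins, although both stood in the cardiac class here.

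The 6 libraries came from single whole embryos at the 10-somite stage, 3 wild type (WT) and 3 Pea3 triple mutants, labelled 3etv. Pea3 genes encode ETS transcription factors that act downstream of fibroblast growth factor signalling, and the labels do not say which 3 genes carry mutations, with which alleles, or from which parents. Clutch and line may differ with genotype, and their effects cannot be told apart from it. Gene counts totalled between 22446699 and 28841169 in WT and between 18484238 and 21865288 in 3etv, so each 3etv library was the shallower. Of the 4 Pea3 genes, etv5b (log2 fold change -1.69), etv5a (-1.52) and etv1 (-1.33) were lower in 3etv, while etv4 (-0.52) did not pass the threshold (edgeR adjusted p 0.057). Each of the lists of muscle, heart, blood, notochord, epidermal and neural markers held genes with enough counts to test, as a whole embryo should.

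Sarcomere genes as a group were lower in 3etv embryos. Of the 89 members, 69 passed the low-count filter and were tested, and the other 20 held between 10 and 89 counts in all. edgeR's quasi-likelihood test, adjusted by the Benjamini-Hochberg method over all 18533 tested genes, called 34 members lower (49.3% of those tested) and 8 higher (11.6%). Over all tested genes, 15.4% were called lower and 15.9% higher, and the median log2 fold change was 0.0035, against -0.38 over the tested members. Among members called lower, tnni1b and myh7 passed the low-count filter only through their WT libraries, where they are high. Among those called higher, myom2a, tnnt2d and myh7l passed it only through their 3etv libraries, where they are high. Groups did not overlap in 63.8% of the tested members, against 45.1% of all tested genes. Among the tested members, 3etv embryos were all lower in 35 (22.4% of all tested genes) and all higher in 9 (22.7%). The labels' tissue is the whole embryo, so fewer muscle cells and less RNA per muscle cell cannot be told apart.

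The fall was seen in the summed signal as well as gene by gene. CPM values (counts scaled to library size with TMM factors, the unit of every level given here) summed over all members but the smooth or non-muscle class were 2651, 2772 and 2927 in the WT embryos. They were 2059, 1967 and 2028 in the 3etv embryos, each below each WT embryo. The smooth or non-muscle class, built of myosins and actinins that most cells use, summed to 1540 ± 41.7 CPM in WT and 1610 ± 13.9 in 3etv (SD, n = 3 each). Of its 12 tested members, 2 were lower and 2 higher (16.7% each), near the 15.4% and 15.9% of all tested genes. The median log2 fold change of this class was -0.0085.

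**Figure D1:**
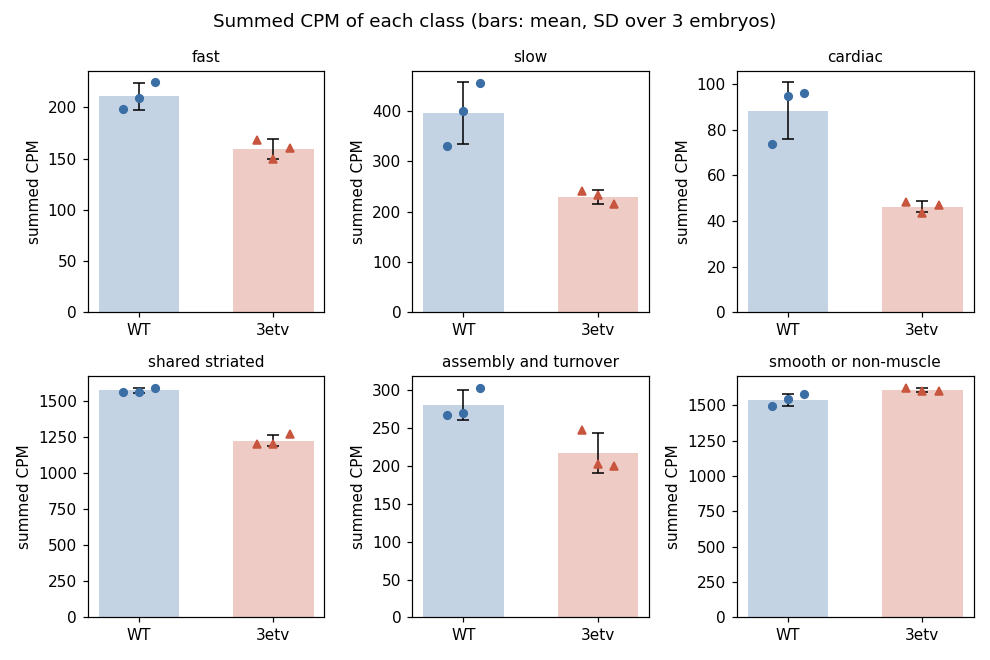
Summed CPM of each class (y axis, from 0) in WT and 3etv embryos; points are single embryos, bars the mean and lines the SD over 3 embryos. In the fast, slow, cardiac, shared striated, and assembly and turnover classes each 3etv embryo lies below each WT embryo, while in the smooth or non-muscle class the 3etv embryos, at 1601 to 1626 CPM, lie just above the WT embryos, at 1497 to 1580.

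Genes of the shared striated scaffold were lower in most cases: 12 of 19 tested members fell (63.2%) and 3 rose (15.8%). Over all tested genes, 15.4% were called lower and 15.9% higher. The median log2 fold change of the class was -0.39. Among the rises, myom2a passed the low-count filter only through its 3etv libraries, where it is high. The clearest fall was in desma, which encodes the muscle intermediate filament desmin. It stood at 67.6, 71.8 and 77.9 CPM in the WT embryos and at 28.7, 21.9 and 25.8 in the 3etv embryos. The groups were far apart (log2 fold change -1.51, SE 0.096, edgeR adjusted p 2.18e-07).

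The titin genes, which encode the giant elastic protein spanning from Z-disc to M-band, fell less. ttn.1 stood at 406.8, 409.1 and 409.3 CPM in WT and at 347.8, 306.6 and 326.4 in 3etv, which gives -0.32 as log2 fold change (SE 0.059, edgeR adjusted p 0.0012). ttn.2, its neighbour, stood at 291.1, 322.4 and 321.0 CPM in WT and at 225.2, 219.7 and 220.7 in 3etv (log2 fold change -0.49, SE 0.059, edgeR adjusted p 4.79e-05). WT embryos lay close to each other in either gene, and no 3etv embryo reached them. neb, which encodes the thin-filament ruler nebulin, fell from 44.6 ± 3.77 to 34.1 ± 1.48 CPM (log2 fold change -0.39, edgeR adjusted p 0.0029, n = 3 each).

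Of the M-band genes, myom1b stood at 11.95, 13.9 and 13.4 CPM in WT and at 5.996, 5.80 and 6.08 in 3etv (log2 fold change -1.14, edgeR adjusted p 1.50e-05). Its paralogue myom1a fell by 1.17 log2 units (adjusted p 0.010), from 1.42 ± 0.20 to 0.63 ± 0.033 CPM. The remaining tested myomesin gene, myom2a, moved the other way. WT libraries held 1, 2 and 1 of its counts, and 3etv libraries held 17, 22 and 13. The ratio of 3etv to WT was 17.0, with a 95% counting interval from 6.27 to 64.9 that covers counting error only (edgeR adjusted p 1.16e-04). myom2a passed the low-count filter only through its 3etv libraries, where it is high. Its rise is thus no evidence on the M-band genes as a set.

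Tropomyosins lie along the thin filament and set where myosin may bind. Of their 5 tested members, 4 fell, against 15.4% of all tested genes. tpm4a stood at 187.2, 175.9 and 182.5 CPM in WT and at 107.3, 124.4 and 142.4 in 3etv (log2 fold change -0.54, SE 0.087, edgeR adjusted p 5.58e-04). tpm2 (-0.50), tpm4b (-0.45) and tpm1 (-0.38) fell by similar amounts, with edgeR adjusted p between 9.78e-05 and 0.010. tpm3 overlapped between the groups, at 329.0 to 375.5 CPM in WT and 312.2 to 359.0 in 3etv (log2 fold change -0.050, SE 0.068, adjusted p 0.62). Tropomyosins are used by non-muscle cells too, and whole-embryo counts do not part the 2 sources. Also lower were mybphb, a myosin-binding protein gene (-0.63, adjusted p 2.01e-04), and ldb3a, which encodes the Z-disc protein Cypher (-0.54, adjusted p 0.0056).

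Tropomodulins, which cap the slow-growing ends of thin filaments, did not fall. tmod4 rose from 5.26, 5.58 and 6.03 CPM in WT to 7.87, 9.20 and 9.01 in 3etv (log2 fold change 0.63, SE 0.13, edgeR adjusted p 0.0031). tmod1 (0.17, adjusted p 0.70) and tmod2 (0.23, adjusted p 0.32) overlapped between the groups. nebl, whose mammalian counterpart encodes nebulette, a short nebulin relative of heart muscle, stood at 0.76, 0.82 and 0.48 CPM in WT and at 2.46, 2.16 and 2.71 in 3etv. It rose by 1.82 log2 units (SE 0.29, edgeR adjusted p 3.93e-04). actn2b, an alpha-actinin of the Z-disc, stood at 4.64 to 5.61 CPM in WT and 4.02 to 6.03 in 3etv, and its difference of 0.036 (log2, SE 0.18) missed the threshold (adjusted p 0.90).

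**Figure D2:**
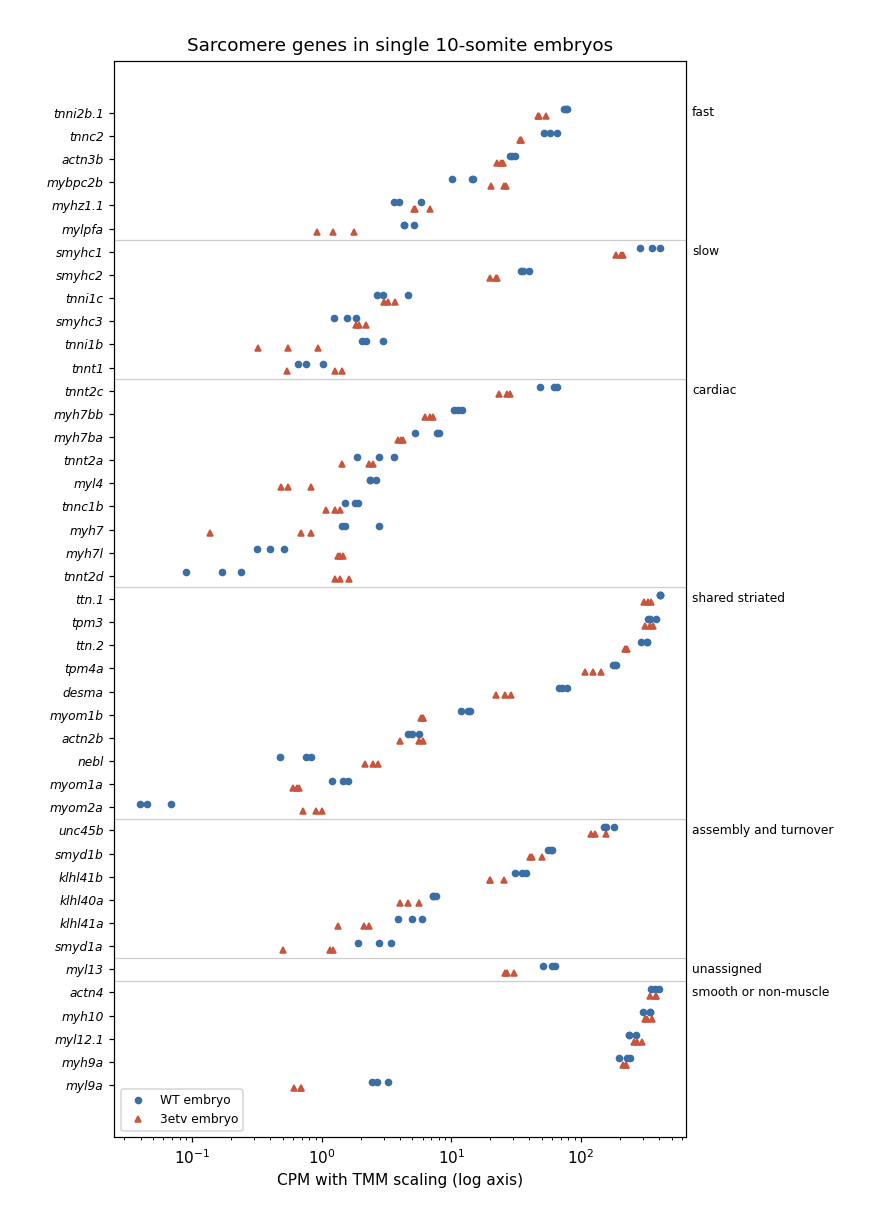
CPM (x axis, log scale) of the 43 members named by rule in each embryo, grouped by class; circles are WT and triangles 3etv embryos. desma, mylpfa, tnnt2c and myl4 show a gap with 3etv below WT, myom2a, tnnt2d, nebl and myh7l a gap with 3etv above WT, and actn4, myh10 and tpm3 overlap.

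Of 9 tested fast skeletal members, 4 fell and 1 rose, where 15.4% of all tested genes were called lower and 15.9% higher, and the median log2 fold change was -0.33. tnnc2, which encodes the calcium sensor of fast troponin, stood at 51.9, 58.0 and 65.7 CPM in WT and at 34.5, 33.9 and 34.6 in 3etv. The 3etv embryos were close together and all below WT (log2 fold change -0.77, SE 0.086, edgeR adjusted p 2.74e-05). tnni2b.1, which encodes the inhibitory subunit of fast troponin, stood at 73.5, 76.8 and 77.99 CPM in WT and at 53.4, 46.7 and 47.5 in 3etv (log2 fold change -0.63, SE 0.071, adjusted p 2.92e-05). Without these 2 genes the class summed to 76.2 ± 4.11 CPM in WT and 75.6 ± 6.27 in 3etv (SD, n = 3 each), and the embryos overlapped. That remainder holds falls, as of actn3b and mylpfa, and the rise of mybpc2b, from 13.1 ± 2.54 to 24.0 ± 3.30 CPM.

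The deepest fall of the class was in mylpfa, the fast regulatory light chain gene, at 4.33, 4.35 and 5.15 CPM in WT and 1.77, 0.92 and 1.22 in 3etv. It thus differed by -1.83 in log2 terms (SE 0.24, edgeR adjusted p 9.50e-05). actn3b, the fast-fibre alpha-actinin, fell by 0.31 log2 units (SE 0.083, adjusted p 0.012), from 29.6 ± 1.42 to 23.8 ± 1.19 CPM, and missed the threshold without WT embryo 3 (adjusted p 0.055). myl1, the fast essential light chain gene, did not pass (log2 fold change -0.79, SE 0.30, adjusted p 0.061) and passed without WT embryo 1, without 3etv embryo 1, without a low-count filter, and with DESeq2 or limma voom.

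mybpc2b, which encodes fast myosin-binding protein C, was the member of the class called higher. It stood at 10.1, 14.4 and 14.6 CPM in WT and at 26.2, 20.2 and 25.5 in 3etv, with no overlap (log2 fold change 0.87, SE 0.15, edgeR adjusted p 9.21e-04). tnnt3b, a fast troponin T gene, overlapped between the groups, at 10.2 to 12.5 CPM in WT and 9.52 to 11.5 in 3etv (log2 fold change -0.040, SE 0.13, adjusted p 0.84). Fast myosin heavy chains had few counts at this stage. Of the myhz genes, 1 of the 2 rows with the symbol myhz1.1 was tested, at 5.84, 3.63 and 3.95 CPM in WT and 5.19, 5.15 and 6.85 in 3etv (log2 fold change 0.36, SE 0.20, adjusted p 0.19). It passed without WT embryo 1 (0.59, adjusted p 0.028). Summed over the 6 rows of the myhz1 copies, myhz2 and myhc4, CPM was 4.59 ± 1.25 in WT and 5.90 ± 0.83 in 3etv (log2 fold change 0.37, adjusted p 0.17, SD and n = 3 each). Reads that fit more than 1 copy are not in these counts, so the split between copies is uncertain.

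The 7 fast members that were not tested, mylpfb, tnni2b.2, tnnt3a, mybpc2a, myhz1.3, tnni2a.2 and tnni2a.1, held between 11 and 40 counts each over the 6 libraries. With no low-count filter all 16 fast members were tested, and none of these 7 was called.

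Among slow skeletal genes, myosin heavy chains and 1 troponin gene were lower. Of 6 tested members, 3 fell and 0 rose, where 15.4% of all tested genes were called lower and 15.9% higher. The median log2 fold change was -0.40. Among the 3 that fell is tnni1b, which passed the low-count filter only through its WT libraries, where it is high. With so few members, 0 rises cannot be told apart from that 15.9%. At an unadjusted p under 0.05 the number that rose was also 0, as it was with DESeq2 and limma voom at the adjusted threshold. smyhc1, the slow myosin heavy chain of the first trunk fibres, stood at 286.9, 355.7 and 407.7 CPM in WT and at 212.4, 202.9 and 187.0 in 3etv. WT embryos were spread wide and 3etv embryos lay close together below them (log2 fold change -0.80, SE 0.11, edgeR adjusted p 6.26e-04). smyhc2, the next gene along the chromosome, stood at 34.7, 35.5 and 39.8 CPM in WT and at 22.2, 22.5 and 19.7 in 3etv (log2 fold change -0.77, SE 0.089, adjusted p 3.54e-05).

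smyhc3, the next gene of that cluster, overlapped between groups at 1.24 to 1.83 CPM in WT and 1.82 to 2.21 in 3etv (log2 fold change 0.37, SE 0.25, edgeR adjusted p 0.28). These copies are alike in sequence, and reads that fit more than 1 are lost to all of them. Summed before the fit, the 3 genes fell from 388.3 ± 62.8 to 224.3 ± 14.3 CPM (log2 fold change -0.79, SE 0.10, adjusted p 3.20e-04, n = 3 each). tnni1b, a gene of the slow troponin I family, stood at 2.05, 2.98 and 2.20 CPM in WT and at 0.32, 0.55 and 0.94 in 3etv. It fell by 2.003 log2 units (SE 0.34, adjusted p 7.24e-04). tnni1b passed the low-count filter only through its WT libraries, where it is high. tnni1c (log2 fold change -0.032, adjusted p 0.93) and tnnt1 (0.43, SE 0.38, adjusted p 0.42) overlapped between the groups, and mybpc1, with 43 counts, was not tested.

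Of the markers of slow fibre precursors, prdm1a, the factor that commits adaxial cells to the slow fate, stood at 63.9 ± 4.34 CPM in WT and 69.8 ± 12.03 in 3etv (log2 fold change 0.13, edgeR adjusted p 0.39, n = 3 each). prdm1a is also used outside slow muscle.

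Of 10 tested members of the cardiac class, 5 fell and 2 rose, where 15.4% of all tested genes were called lower and 15.9% higher, and the median log2 fold change was -0.61. The rises, in myh7l and tnnt2d, and the fall of myh7 are in genes that passed the low-count filter only through the group where each is high. Much of the summed CPM of the class came from tnnt2c, which stood at 48.3, 62.1 and 64.9 CPM in WT and at 28.2, 23.4 and 26.9 in 3etv. It fell by 1.16 log2 units (SE 0.11, edgeR adjusted p 1.58e-05) with no overlap. Without tnnt2c, whose synonym names a slow troponin T, the class summed to 29.9 ± 3.75 CPM in WT and 20.2 ± 0.073 in 3etv (SD, n = 3 each). With tnnt2c and tnnc1b counted as slow instead, an assignment chosen after seeing the data, 4 of 8 slow members and 4 of 8 cardiac members were lower.

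The myh7b genes, which encode a myosin heavy chain of slow and cardiac muscle in mammals, both fell. myh7bb stood at 10.4, 11.3 and 12.1 CPM in WT and 6.80, 7.17 and 6.30 in 3etv (log2 fold change -0.73, SE 0.12, edgeR adjusted p 5.90e-04). myh7ba fell from 7.001 ± 1.55 to 4.07 ± 0.20 CPM (-0.79, SE 0.18, adjusted p 0.0048). myl4, named for the atrial essential light chain of mammals, stood at 2.63, 2.36 and 2.36 CPM in WT and at 0.48, 0.83 and 0.55 in 3etv (-1.95, SE 0.28, adjusted p 2.17e-04). All 3 genes had each 3etv embryo below each WT embryo, as had 22.4% of all tested genes.

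The ventricular myosin gene myh7, for which RefSeq also gives the name vmhc, and its neighbour myh7l, also named vmhcl, moved in opposite directions. myh7 had 34, 81 and 36 counts in WT and 13, 3 and 15 in 3etv, which gives -1.83 as log2 fold change (SE 0.47, edgeR adjusted p 0.011). It missed the threshold without WT embryo 2 (-1.45, adjusted p 0.053). myh7l had 9, 15 and 8 counts in WT and 27, 30 and 24 in 3etv, which gives 1.72 as log2 fold change (SE 0.33, adjusted p 0.0017). myh7 passed the low-count filter only through its WT libraries and myh7l only through its 3etv libraries, where each is high. Summed, the pair stood at 1.92, 3.28 and 1.76 CPM in WT and at 2.14, 1.52 and 2.16 in 3etv, which overlap. How reads were divided between these related neighbours cannot be read from the counts.

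tnnt2d, another gene of the cardiac troponin T family, rose from few counts. WT libraries held 2, 5 and 6 of its counts, and 3etv libraries held 26, 35 and 23, which gives 3.04 as log2 fold change (SE 0.41, edgeR adjusted p 1.12e-04). tnnt2d passed the low-count filter only through its 3etv libraries, where it is high. tnnt2a, whose loss stops the zebrafish heartbeat, overlapped between the groups at 1.87, 3.59 and 2.75 CPM in WT and 2.30, 1.43 and 2.49 in 3etv (log2 fold change -0.43, SE 0.28, adjusted p 0.27). tnnc1b (-0.49, SE 0.26, adjusted p 0.17) and tnnt2b (-0.14, SE 0.41, adjusted p 0.82) did not pass either.

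Contractile genes typical of the beating heart were barely counted. myl7, the light chain gene most used to mark the zebrafish heart, had 1, 7 and 5 counts in WT and 0, 2 and 4 in 3etv, and myh6, tnnc1a, mybpc3, myl2a, myl2b, tnnt2e and tnni3k were also too low to test. The last of these is named for a kinase that binds cardiac troponin I and is no troponin. Of the 7 tested transcription factor genes of the heart list, 5 were higher in 3etv, against 15.9% of all tested genes. These were gata4, gata5, gata6, tbx5a and tbx20, with log2 fold changes from 0.57 to 1.11. The others, nkx2.5 (-0.43, edgeR adjusted p 0.24) and hand2 (0.072, adjusted p 0.69), overlapped between the groups. The heart list summed to between 44.2 and 60.3 CPM in WT and between 69.7 and 86.6 in 3etv. Its vmhc was not found under that symbol, so myh7, which fell, is not in the sum. Whole-embryo counts do not show which cells the heart-list factors come from. The part of these heart factors in the values of the cardiac class was not tested.

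In all, 3 ratios between fast genes and a slow, cardiac or shared counterpart could be compared within embryos, which needs no scaling between libraries. The log2 ratio of myhz1.1 to smyhc1 CPM, counts that are not corrected for transcript length, was -5.62, -6.62 and -6.69 in WT and -5.35, -5.30 and -4.77 in 3etv. The groups did not overlap, and the mean differed by 1.17, with an exact two-sided permutation p of 0.1, the smallest that 3 against 3 embryos allow (0.2 adjusted over the 3 pairs). The ratio of tnnc2 to tnnc1b changed by -0.27 and that of actn3b to actn2b by -0.33 on the log2 scale, each with overlapping embryos and an exact permutation p of 0.2. The other 5 of the 8 pairs had a member under the low-count filter. With 3 embryos against 3 this test cannot reach an adjusted p under 0.05, and 3 pairs do not stand for whole classes. The shares of fast, slow and cardiac members called lower, 4 of 9, 3 of 6 and 5 of 10, were not tested against each other.

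**Figure D3:**
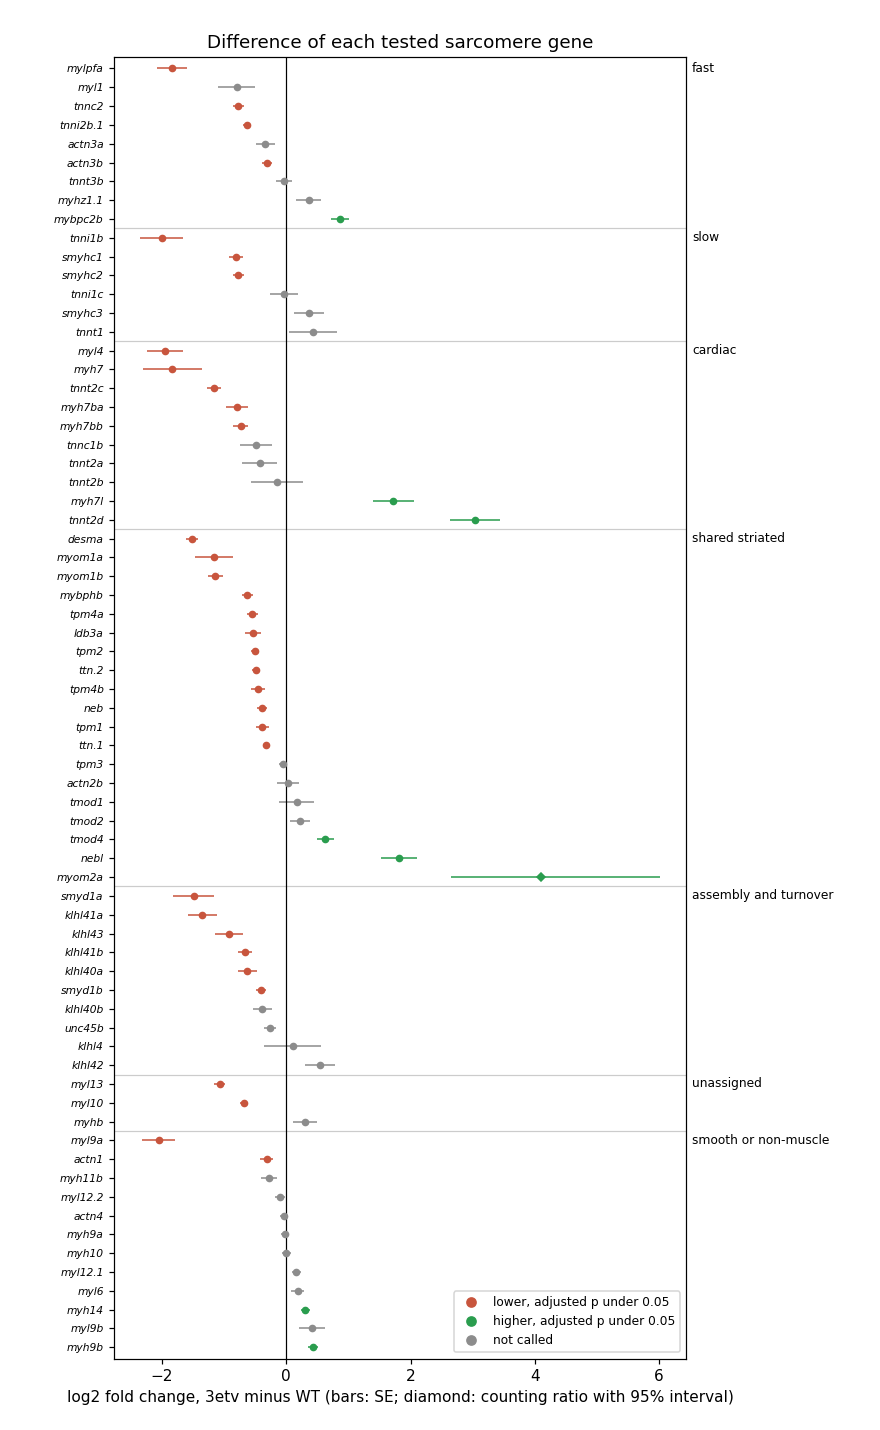
Log2 fold change (3etv minus WT, x axis) of the 69 tested members by class, with SE; red points were called lower, green higher and grey neither at an adjusted p under 0.05. The diamond is myom2a, drawn as its ratio of counts, 17.0, with the 95% counting interval. Most striated members lie left of 0, while 8 of 12 smooth or non-muscle members were not called.

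The assembly and turnover class, mostly genes for building and clearing myofibrils, was lower in most members. It took in every symbol that begins with klhl4. Of 10 tested members of this class, 6 were lower and 0 higher, against 15.4% and 15.9% of all tested genes. klhl42, named within the same numbered family but not tied to muscle, stood at 1.20 to 1.83 CPM in WT and 1.93 to 2.32 in 3etv (log2 fold change 0.54, edgeR adjusted p 0.11). klhl4, placed here by its symbol alone, overlapped between the groups (log2 fold change 0.11, adjusted p 0.88). At an unadjusted p under 0.05, 1 member was higher, klhl42, and none was called higher by DESeq2 or limma voom. smyd1b, a methyltransferase gene needed for thick filament assembly in zebrafish, stood at 55.9, 58.7 and 59.2 CPM in WT and at 49.7, 40.1 and 41.7 in 3etv (log2 fold change -0.40, SE 0.084, adjusted p 0.0027). Its paralogue smyd1a stood at 3.44, 1.92 and 2.75 CPM in WT and 1.23, 0.51 and 1.16 in 3etv (-1.49, SE 0.34, adjusted p 0.0045).

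The Kelch proteins KLHL40 and KLHL41 stabilise thin filament proteins in muscle. klhl41b stood at 30.9, 35.1 and 37.8 CPM in WT and at 25.6, 19.96 and 19.95 in 3etv (log2 fold change -0.67, SE 0.11, edgeR adjusted p 6.01e-04). klhl41a fell by 1.35 log2 units (SE 0.24, adjusted p 8.17e-04), from 4.92 ± 1.014 to 1.93 ± 0.52 CPM. klhl40a fell by 0.62 (adjusted p 0.0073) and klhl43 by 0.92 (adjusted p 0.0082) on the same scale. klhl40b, with each 3etv embryo below each WT embryo, did not pass (-0.38, adjusted p 0.078). unc45b, the myosin chaperone gene, stood at 155.7, 150.9 and 178.9 CPM in WT and at 156.3, 127.7 and 119.9 in 3etv, with 3etv embryo 1 among the WT values. Its difference of -0.27 (log2, SE 0.098) missed the threshold (adjusted p 0.062), and without 3etv embryo 1 it was -0.38 and passed (adjusted p 0.0047). It also passed in DESeq2, at 0.031, and in edgeR with no filter on low counts, at 0.045. Over all alternatives the adjusted p ran from 0.0047 to 0.19.

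The light chain genes that the classes did not place were lower too. myl10 stood at 160.2, 172.3 and 187.6 CPM in WT and at 114.9, 104.2 and 105.3 in 3etv (log2 fold change -0.68, SE 0.071, edgeR adjusted p 1.41e-05). myl13 stood at 51.2, 59.3 and 63.3 CPM in WT and at 30.2, 25.8 and 26.7 in 3etv (-1.07, SE 0.093, adjusted p 3.50e-06). Both had wide gaps between the groups. myhb, a myosin heavy chain gene, overlapped (0.31, adjusted p 0.26), and tnni4b.2, with 35 counts, was not tested.

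In the smooth or non-muscle class, the 4 members of highest CPM did not pass the threshold. actn4, an alpha-actinin of non-muscle cells, stood at 347.6 to 397.7 CPM in WT and 341.7 to 376.5 in 3etv (log2 fold change -0.032, SE 0.065, edgeR adjusted p 0.74). The non-muscle myosin genes myh10 (0.0026, SE 0.068, adjusted p 0.98) and myh9a (-0.020, SE 0.072, adjusted p 0.86) overlapped between the groups. myl12.1, a regulatory light chain gene, overlapped as well (0.16, SE 0.073, adjusted p 0.11) and passed without WT embryo 1 (0.23, adjusted p 0.021), with an adjusted p of up to 0.33 over the alternatives. myh9b, by contrast, rose by 0.43 log2 units (SE 0.082, adjusted p 0.0015), from 87.0 ± 8.48 to 117.3 ± 9.80 CPM, and myh14 by 0.31 (adjusted p 0.0034).

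The largest change of that class was in myl9a, which encodes a regulatory light chain of smooth muscle and non-muscle myosin. It stood at 3.26, 2.43 and 2.67 CPM in WT and at 0.70, 0.69 and 0.61 in 3etv, which gives -2.05 as log2 fold change (SE 0.26, edgeR adjusted p 8.70e-05). Its paralogue myl9b overlapped, at 33.2 to 50.3 CPM in WT and 42.0 to 64.8 in 3etv (0.41, SE 0.20, adjusted p 0.18). actn1 was called lower (-0.31, adjusted p 0.039) but its embryos overlapped, and it lost the call without WT embryo 2 or 3 or any single 3etv embryo. Smooth muscle markers were low in both groups, with acta2, tagln and cnn1b summing to between 1.61 and 1.87 CPM in WT and between 1.22 and 1.87 in 3etv.

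Large changes were more often falls. A log2 fold change of -1 or less was called in 12 of the 69 tested members, against 4.8% of all tested genes. One of 1 or more was called in 4 of the 69, a share near the 5.35% of all tested genes. The 4 large rises, in myom2a, tnnt2d, nebl and myh7l, were in genes with a mean of at most 2.44 CPM in either group. Of these, myom2a, tnnt2d and myh7l passed the low-count filter only through the 3etv libraries, where they are high. Among the large falls, tnni1b and myh7 passed it only through the WT libraries, where they are high. The rises of mybpc2b, tmod4, myh9b and myh14 were smaller and rested on more counts.

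Embryos of 1 genotype also differed from each other in these genes. Over the 57 tested members outside the smooth or non-muscle class, WT embryo 1 had the lowest WT value in 61.4% and WT embryo 3 the highest in 54.4%, against 37.5% and 31.3% of all tested genes. Of the 3etv embryos, embryo 2 was lowest in 54.4% of these members, against 31.6% of all tested genes. The labels give no finer stage than the somite number. The median coefficient of variation over the tested members was 11.8% in WT and 10.0% in 3etv.

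Muscle genes outside the symbol rule were compared in the same fit. The lists hold muscle actins, myogenic regulators, further Z-disc genes, genes of calcium handling and energy, and genes of myoblast fusion. They were chosen with earlier results of these data known, so their shares cannot stand as a separate test. Together, 40 of 72 tested genes were lower and 6 higher, where 15.4% of all tested genes were called lower and 15.9% higher. Of these, myot and the lower row of actc1a passed the low-count filter only through the WT libraries, where they are high. csrp3, among the higher, passed it only through the 3etv libraries, where it is high. The median log2 fold change of the lists was -0.59. The calcium and energy list had 12 lower and 1 higher of 21, with a median of -0.98, and the Z-disc list 14 lower and 3 higher of 23, with a median of -0.62.

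Of the regulators, 7 of 17 tested fell and 1 rose, against 15.4% and 15.9% of all tested genes. myod1, the factor that commits cells to muscle, stood at 93.5, 84.2 and 87.9 CPM in WT and at 65.3, 46.8 and 63.6 in 3etv (log2 fold change -0.60, SE 0.11, edgeR adjusted p 0.0021). myog, which drives differentiation, stood at 17.0, 23.9 and 24.9 CPM in WT and at 14.0, 9.24 and 10.4 in 3etv (-0.97, SE 0.18, adjusted p 0.0022). For both genes each 3etv embryo was below each WT embryo, as for 22.4% of all tested genes. Their part in the values of the sarcomere genes was not tested.

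The muscle actins, partners of the thick filament genes, did not move as 1 group. actc1b fell by 0.77 log2 units (SE 0.093, edgeR adjusted p 8.51e-05) and acta1a by 0.42 (adjusted p 3.09e-04), while acta1b rose by 0.53 (SE 0.11, adjusted p 0.0039). acta1b stood at 38.1, 34.5 and 26.4 CPM in WT and at 48.3, 45.5 and 48.7 in 3etv, without overlap. The symbol actc1a belongs to 2 rows. ENSDARG00000076126 stood at 109.8, 108.5 and 240.4 CPM in WT and at 0.32, 0 and 0.72 in 3etv, and its log2 fold change was -8.85 (SE 0.82, adjusted p 0.0023). That row passed the low-count filter only through its WT libraries, where it is high. ENSDARG00000042535 overlapped, at 138.4 to 215.4 CPM in WT and 185.2 to 218.6 in 3etv (0.13, adjusted p 0.61). How reads were divided between these rows is uncertain. tpma, a muscle tropomyosin gene outside the rule, fell from 69.5 ± 4.19 to 36.9 ± 3.13 CPM (-0.92, adjusted p 3.59e-06, n = 3 each).

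Among genes of excitation and calcium release, ryr1b, a release channel gene, stood at 10.4, 9.48 and 10.9 CPM in WT and at 3.16, 2.58 and 2.93 in 3etv (log2 fold change -1.83, SE 0.15, edgeR adjusted p 1.67e-06). Its paralogue ryr1a did not pass (-0.29, adjusted p 0.069). Of the fusion genes, mymk, needed for myoblasts to fuse, fell by 1.33 log2 units (SE 0.29, adjusted p 0.0036). The Z-disc list held the largest rise, in csrp3, which encodes muscle LIM protein. It had 10, 3 and 5 counts in WT and 80, 127 and 85 in 3etv (4.35, SE 0.35, adjusted p 1.75e-06). csrp3 passed the low-count filter only through its 3etv libraries, where it is high. pdlim5a, a Z-disc scaffold gene, rose by 1.80 (SE 0.26, adjusted p 2.19e-04) and myot, which encodes myotilin, fell by 2.93 (SE 0.41, adjusted p 1.62e-04). myot passed the low-count filter only through its WT libraries, where it is high.

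**Figure D4:**
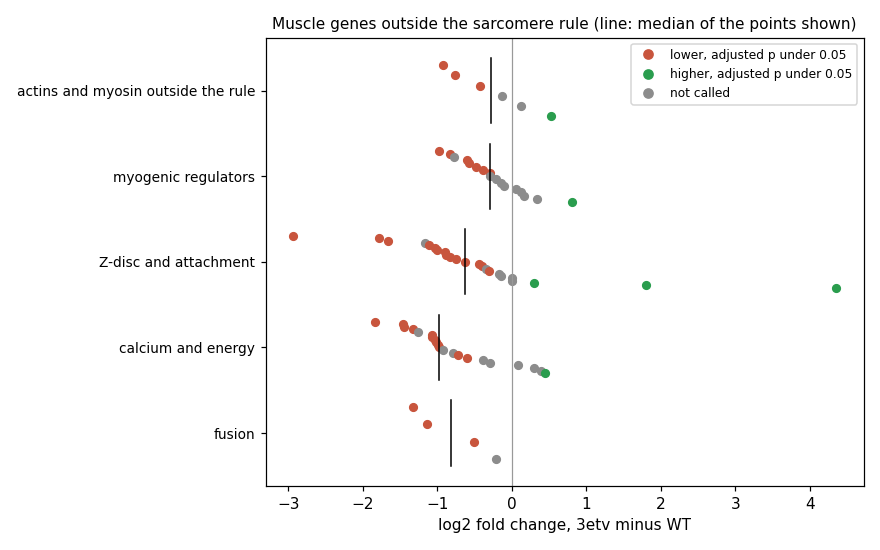
Log2 fold change (3etv minus WT, x axis) of tested muscle genes outside the symbol rule, by list; red points were called lower, green higher and grey neither, and lines mark the median of the points shown. The lower of 2 rows with the symbol actc1a, at -8.85, lies off the axis and is left out; csrp3, at 4.35, stands far right of its list.

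Other cell types did not fall alike. Of the notochord markers 2 of 4 were higher, while 3 of 4 neural and 2 of 4 epidermal markers were lower, by at most 0.35 on the log2 scale. Over all tested genes, 15.4% were called lower and 15.9% higher. The summed blood markers overlapped, at 60.2 to 70.1 CPM in WT and 62.6 to 72.9 in 3etv, and tal1 made up most of the sum, at 46.9 ± 5.74 CPM in WT and 56.0 ± 5.21 in 3etv (n = 3 each). gata1a (-0.59, edgeR adjusted p 0.0048), hbbe1.1 (-0.92, adjusted p 0.046) and hbae3 (-0.92, adjusted p 0.0080) were lower. alas2, of the same list, had each 3etv embryo above each WT embryo but was not called (0.56, adjusted p 0.13). The skeletal muscle markers summed to between 679.0 and 770.1 CPM in WT and between 456.8 and 524.6 in 3etv, with 6 of 7 lower and acta1b higher. Of these, desma and tnnc2 are sarcomere members and the rest stand in the muscle lists above, so the same calls are counted again.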

How the data were processed

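Poly-A RNA of single embryos was sequenced with strand-specific libraries, per the labels' protocols. The authors deposited 1 table of raw counts per Ensembl gene, not normalized. The submitters' processing notes name STAR, HTSeq and the build GRCz11; their versions, the annotation and the counting settings are not given in the sources used here. The header line lacks 1 tab, so columns were matched by the names in it. The 5 summary entries were left out, and genes held 39.7% to 41.7% of the reads in the table. Between 52.8% and 53.6% fell in no annotated feature, and 5.12% to 6.38% did not align uniquely. The cause of the large share in no feature was not tested. Genes were filtered with filterByExpr by group and scaled by TMM. They were tested with edgeR 4.0.16 in R 4.3.3 (robust quasi-likelihood, genotype as sole term) and adjusted over 18533 genes at 0.05. The SE is the absolute log2 fold change over the square root of F. Libraries of 1 group differed by more than sampling noise (chi-square per degree of freedom at least 3.6). Alternatives used DESeq2 1.42.0 and limma 3.58.1. RefSeq's GRCz12tu list gave synonyms and neighbours only. A library's 3 counts equal 0.10 to 0.16 CPM. Members, classes and lists were chosen with earlier results of these data known. Named in full were desma, tnnc2, the 4 tested members of highest mean CPM per class, those called at an absolute log2 fold change of at least 1, and the members of 8 fixed pairs; others were chosen after their values were seen.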

Additional observations from a re-analysis of the deposited data

How the results depend on the processing

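Every called member kept its direction, and no call turned, in all alternatives that tested it. Against 34 members lower and 8 higher, leaving out 1 embryo gave 32 to 37 lower and 8 to 12 higher. With the replicate number as a block, 33 were lower and 8 higher; 41 of 42 calls were kept and actn1 was lost. Same-numbered embryos gave no sign of pairing (correlations of deviations from -0.13 to -0.030). At a mean of at least 50 counts, 52 members were tested and 4 were higher; by class, 3 cardiac members were then lower and 0 higher and 1 shared striated member was higher, since fewer genes were tested, and 0 smooth or non-muscle members were lower, as myl9a fell under the filter and actn1 lost its call. The 2 smooth or non-muscle members lower became 1 with limma voom, with the block and at an adjusted p under 0.01, and 1 to 2 without 1 embryo; those higher became 2 to 5, and the fast members higher 1 to 2. The cause was not tested. Of members that were not called, the sign turned for tnni1c with limma voom (0.018) and for myh10 with RLE scaling (-0.00013), DESeq2 (-0.00016) and no filter (-0.0088). Without 1 embryo each, tpm3 ranged from -0.095 to 0.0064, tnni1c from -0.18 to 0.23, actn4 from -0.082 to 0.014, myh10 from -0.053 to 0.038, myh9a from -0.10 to 0.039 and actn2b from -0.090 to 0.19. Thinning each library to 18484238 counts, added after seeing the data, kept 42 of 42 calls. Depth limited the 20 members under the low-count filter, with 10 to 89 counts in all.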

Other observations

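In the RefSeq order of GRCz12tu, 9 pairs of members are next to each other, a property the symbol rule did not use. The neighbours smyhc1 and smyhc2 both fell, as did ttn.1 and ttn.2. On the other side of smyhc2 lies smyhc3, which was not called (log2 fold change 0.37, edgeR adjusted p 0.28). In other pairs 1 gene fell and its neighbour was not called: tnni1b (log2 fold change -2.00, edgeR adjusted p 7.24e-04) lies next to tnnt2b (-0.14, adjusted p 0.82), myom1a (-1.17, adjusted p 0.010) next to myl12.2 (-0.098, adjusted p 0.39), and myom1b (-1.14, adjusted p 1.50e-05) next to myl12.1 (0.16, adjusted p 0.11). myh7 and myh7l, neighbours as well, differed in opposite directions.

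A pair of members lies within 50 genes of a Pea3 gene in that order. neb, which was lower, is 5 places from etv5a, and ldb3b, with 89 counts and under the low-count filter, is 38 places from etv4. ldb3b stood at 0.446, 1.23 and 0.998 CPM in WT and at 0.054, 0.41 and 0.442 in 3etv. With no such filter it was called lower (log2 fold change -1.56, edgeR adjusted p 0.017). Leaving out WT embryo 1 gave -1.85, also called (adjusted p 0.014). It was not called when any single 3etv embryo was left out (adjusted p 0.060 to 0.14). For neb, a difference in the chromosome region around etv5a cannot be told apart from the genotype.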
